A study of Arabidopsis thaliana with 9 samples.

Results

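The genes described here encode the atypical thioredoxins of the Arabidopsis chloroplast and the enzyme that passes electrons to thioredoxins from ferredoxin. They were chosen by locus identifier, 10 of the 32833 genes measured. The 5 ACHT genes (ACHT1 to ACHT5) encode atypical thioredoxins rich in cysteine and histidine. WCRKC1 and WCRKC2 encode thioredoxin-like proteins named for their active site. FTRA1, FTRA2 and FTRB encode subunits of ferredoxin-thioredoxin reductase. RNA was sequenced from whole 6-day-old seedlings of Arabidopsis thaliana grown on MS medium with 0.5% sucrose in continuous light (125 µE per square metre and second). There were 3 libraries each of albino seedlings of the 2cpab mutant, green seedlings of the same mutant and the wild type Col-0. The labels name the mutant without its alleles, and 2CPA and 2CPB, the targeted genes, encode the 2-Cys peroxiredoxins of the chloroplast. Nothing in the labels ties the replicates to different cultures, so the p-values measure the spread between these libraries, which may be technical.

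In the light, photosystem I reduces ferredoxin, ferredoxin-thioredoxin reductase takes the electrons up at an iron-sulfur cluster in its catalytic subunit, and thioredoxins hand them on to disulfide bonds of chloroplast enzymes. The reverse path runs through 2-Cys peroxiredoxins, which draw electrons from thioredoxin-type proteins to reduce hydrogen peroxide, so that those proteins can oxidise enzymes again when light falls. ACHT1 and ACHT4 are known to be oxidised by 2-Cys peroxiredoxins, and ACHT4 to oxidise APS1, the small subunit of the enzyme that commits glucose to starch. WCRKC proteins, also called TrxL2, are known to oxidise Calvin-Benson enzymes in the test tube with 2-Cys peroxiredoxin as their electron sink.

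The active site sets the proteins apart, and the coding sequence around it is shown. ACHT4 and ACHT2, which moved in opposite directions in albino seedlings below, have different sites. ACHT5 has the glycine codons of ACHT4 and had a log2 fold change of -0.39 in albino seedlings against the wild type. ACHT1 has the serine codon of ACHT2 and had 0.21 there. Neither change passed with the deposited values, and both depended on the scaling, as described below. A link between site and direction was not tested. Each stretch holds 45 bases of the coding strand of the RefSeq TAIR10.1 annotation, with the 5 codons of the site in capitals. TRXF1, a typical chloroplast thioredoxin, is given for comparison.
ACHT1: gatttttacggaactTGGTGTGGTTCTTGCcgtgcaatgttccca
ACHT2: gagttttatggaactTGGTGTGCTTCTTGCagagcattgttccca
ACHT3: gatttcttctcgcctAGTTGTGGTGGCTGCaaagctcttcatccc
ACHT4: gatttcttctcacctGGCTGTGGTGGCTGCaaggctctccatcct
ACHT5: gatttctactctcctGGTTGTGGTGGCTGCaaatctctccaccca
WCRKC1: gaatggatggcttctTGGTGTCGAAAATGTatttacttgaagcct
WCRKC2: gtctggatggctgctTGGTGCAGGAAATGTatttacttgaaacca
TRXF1: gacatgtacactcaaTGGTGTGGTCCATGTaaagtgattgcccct
Reading codons by the standard code, all 10 typical chloroplast thioredoxins searched had a tryptophan codon, a cysteine codon, a glycine codon, a proline codon and a second cysteine codon at this place. A TGG codon followed by cysteine codons in the next and the fourth following place was matched once in frame in each of them and in ACHT1, ACHT2, WCRKC1 and WCRKC2. In ACHT1 (from codon 124, chr4:13256022-13256066, plus strand) a serine codon, TCT, stood in the proline position. ACHT2 (chr4:14536379-14536423, minus strand) had the same TCT codon and the alanine codon GCT before it. The WCRKC genes had an arginine and a lysine codon between the cysteines. ACHT3, ACHT4 and ACHT5 had no match to that pattern. They had glycine codons between the cysteine codons, and in place of the tryptophan codon stood AGT in ACHT3, GGC in ACHT4 (chr1:2713676-2713720, plus strand) and GGT in ACHT5. The stretch is continuous in the genome in the 5 ACHT genes, and an intron interrupts it in both WCRKC genes and in TRXF1. Coding identity over aligned bases was 67.5% between ACHT1 and ACHT2, 65.7% between ACHT4 and ACHT5 and 61.3% between ACHT2 and ACHT4. FTRA1 and FTRA2 had the highest identity, at 71.1%. The longest identical run of any pair aligned within a family was 22 bases, in ACHT1 and ACHT2, and how reads were shared between copies was not tested.

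Levels are given as scaled FPKM, fragments per kilobase of transcript scaled to depth, times a factor per library, with the 75th percentile over genes equal in all libraries. FPKM is per length, so levels can be compared between genes. Log2 fold changes were taken on log2(scaled FPKM + 1), are followed by their standard error and understate the changes of low genes. The test was limma across 19731 genes that reached 1 scaled FPKM in at least 3 libraries, and a gene was called at an adjusted p below 0.05. Of the 10 genes, 9 passed that filter, and ACHT3 (AT2G33270, chromosome 2 from 14103515 to 14105524) was listed at 0 in all 9 libraries. The values carry no counts and the number of reads is unknown, but the smallest FPKM steps gave depths of 0.868 to 1.154 relative to wild-type replicate 1. In each library between 22926 and 23963 genes were above 0.

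The targeted genes were below their wild-type range in all 6 mutant libraries. 2CPA stood at 24.2, 21.4 and 25.4 in albino replicates 1 to 3, at 35.8, 267 and 256 in green replicates and at 989, 763 and 889.7 in the wild type. Green replicate 1 thus held 4.07% of the wild-type mean of 2CPA, and green replicates 2 and 3 held 30.3% and 29.1%. 2CPB showed the same order, with 3.60% in green replicate 1 and 24.3% and 27.1% in green replicates 2 and 3. Green replicate 1 stands apart from its group in this respect, and its level of each of the 9 detected genes is given below. Over all tested genes it correlated with the albino libraries at 0.931 to 0.937, and green replicates 2 and 3 did so at 0.898 to 0.911. With green replicates 2 and 3 it correlated at 0.980 and 0.982. It was also the lowest green library in the green-tissue markers RBCS1A, LHCB1.3, LHCB2.1 and PSAF. Since whole seedlings were sampled, fewer cells of a type and less RNA per cell cannot be told apart. The summed level of 4 green-tissue markers lay between 2934 and 3541 in albino, between 21922 and 35989 in green and between 26409 and 33097 in wild-type libraries (RBCS1A, LHCB1.3, LHCB2.1 and PSAF), and all 4 fell in albino seedlings against both other groups. The summed level of 6 root markers lay between 2843 and 3033 in albino libraries, between 1239 and 1724 in green ones and between 1528 and 1565 in the wild type. PYK10 made up most of that sum. PYK10 and EXPA7 rose in albino seedlings against the wild type, where 1 was called without albino replicate 2, albino replicate 3 or wild-type replicate 1. Under TPM and with a common sum without organelle genes 5 were called, and 4 with the scaling undone, scalings described below. Against green seedlings 4 of 5 tested rose, PYK10 (0.97), EXPA7 (0.91), COBL9 (0.75) and CASP1 (0.52), of which 2 were called without albino replicate 2. In green seedlings against the wild type the 5 had a median of -0.44, and 0 passed. CASP1 had a mean of 36.7 in albino, 25.3 in green and 35.9 in wild-type libraries. NRT2.1 was too low to be tested, at 0 in all albino libraries and at most 0.234 in green and 0.391 in wild-type libraries. The 4 seed and embryo markers summed to between 30.7 and 96.2 in albino, 37.4 and 55.3 in green and 3.26 and 13.5 in wild-type libraries, and CRA1, CRU3 and OLEO1 rose in both mutant groups against the wild type. Of the green-tissue markers PSAF alone fell in green seedlings (-0.95, adjusted p = 0.0159), a call lost when only the 6 libraries compared were fitted. The part of these tissue markers in the results on the 10 genes was not tested.

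**Figure D1:**
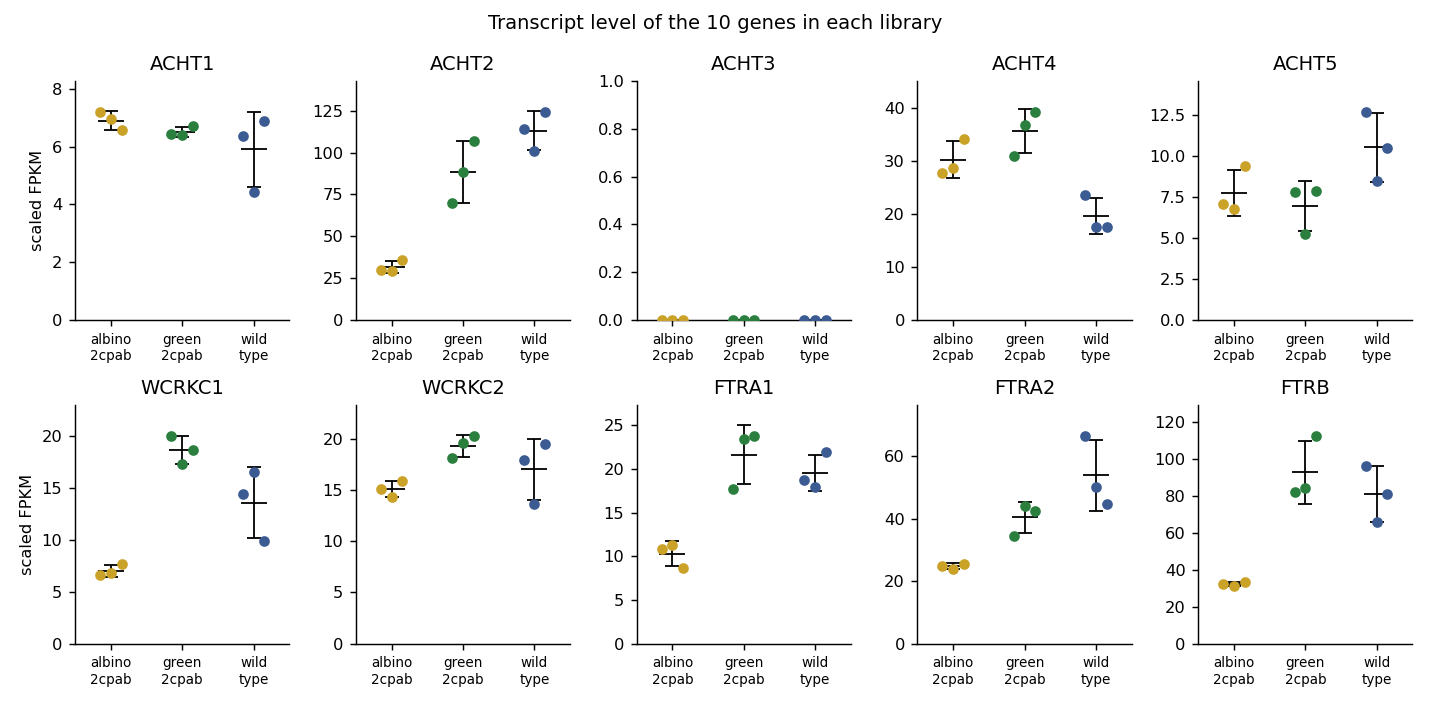
Level of each gene in scaled FPKM (vertical axes, each from 0), one point per library, with the group mean and SD over 3 libraries as black bars; albino 2cpab is left, green 2cpab in the middle and the wild type right. ACHT2, WCRKC1, FTRA1, FTRA2 and FTRB are lowest in the albino libraries, ACHT4 is lowest in the wild type, and ACHT3 lies at 0 throughout.

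ACHT4 was the member that rose in both mutant groups. ACHT4 (AT1G08570, chromosome 1 from 2712694 to 2714833) was at 27.8, 28.8 and 34.2 scaled FPKM in albino replicates 1 to 3, at 31.0, 36.8 and 39.2 in green replicates and at 23.5, 17.6 and 17.6 in the wild type. All 6 mutant libraries lay above all 3 wild-type libraries. The level was 1.55 times the wild-type mean in albino seedlings, a log2 fold change of 0.61 ± 0.14 (adjusted p = 0.00557). In green seedlings it was 1.82 times the wild-type mean, 0.84 ± 0.14 (adjusted p = 0.00528). Between albino and green seedlings the difference was -0.23 ± 0.14 (adjusted p = 0.226), with a 95% interval from -0.54 to 0.08. Green replicate 1, the green library with least 2CPA RNA, was also the lowest green library in ACHT4. The same held for ACHT2, WCRKC2, FTRA1, FTRA2 and FTRB, but not for ACHT1, ACHT5 and WCRKC1. When green replicate 1 alone stood for green seedlings, the change of ACHT4 was 0.65 and did not pass. The call in albino seedlings held under the 23 alternatives that required no 2-fold change.

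ACHT2 went the other way in albino seedlings. It is the most abundant of these genes in the wild type (AT4G29670, chromosome 4 from 14535407 to 14537356). ACHT2 was at 30.0, 29.4 and 35.6 scaled FPKM in albino libraries, at 69.7, 88.3 and 107 in green ones and at 114, 101 and 124 in the wild type. The albino libraries did not overlap with either other group, and green and wild-type libraries did. Albino seedlings held 0.280 of the wild-type mean, -1.80 ± 0.15 (adjusted p = 1.79e-05), and 0.358 of the green mean, -1.44 ± 0.15 (adjusted p = 9.77e-05). Green seedlings had -0.37 ± 0.15 against the wild type (adjusted p = 0.199).

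The low ACHT genes showed no change that passed. ACHT1 (AT4G26160, chromosome 4 from 13255251 to 13256879) was at 7.19, 6.95 and 6.57 scaled FPKM in albino, 6.45, 6.41 and 6.72 in green and 6.39, 4.45 and 6.90 in wild-type libraries. Its log2 fold change was 0.21 ± 0.13 in albino seedlings (95% interval -0.08 to 0.50, adjusted p = 0.220) and 0.14 ± 0.13 in green seedlings against the wild type (adjusted p = 0.602). ACHT5 (AT5G61440, chromosome 5 from 24707445 to 24709396) was at 7.08, 6.80 and 9.38 in albino, 7.80, 5.22 and 7.87 in green and 12.7, 8.45 and 10.5 in wild-type libraries. The green libraries lay below the wild-type libraries, but the change of -0.54 ± 0.18 did not pass (adjusted p = 0.111), nor did that of -0.39 ± 0.18 in albino seedlings (adjusted p = 0.109). The gene overlaps AT5G09000 and AT5G09005 on the other strand, and the use of strand in counting is not given in the sources used here.

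Because ratios within a library do not depend on its scaling factor, the make-up of the ACHT transcripts was also compared. ACHT4 took 38.6%, 40.02% and 39.9% of the summed scaled FPKM of the 5 genes in albino libraries, 27.0%, 26.9% and 24.4% in green ones and 15.02%, 13.4% and 11.04% in the wild type. The 3 groups did not overlap. ACHT2 took 41.3 ± 0.412% in albino, 63.9 ± 3.02% in green and 75.9 ± 2.72% in wild-type libraries (SD, n = 3 each). The ratio of ACHT4 to ACHT2 was 0.956 ± 0.0269 in albino, 0.409 ± 0.0399 in green and 0.174 ± 0.0324 in wild-type libraries. In albino seedlings ACHT4 transcripts were therefore nearly as abundant as ACHT2 transcripts. Each of these comparisons gave p = 0.1 in an exact two-sided permutation test, the smallest that 3 against 3 libraries allow. The summed level of the 5 genes was 76.6 ± 7.90 in albino, 138 ± 23.0 in green and 149 ± 15.4 in wild-type libraries, so the larger share of ACHT4 in albino seedlings came with a smaller sum.

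**Figure D2:**
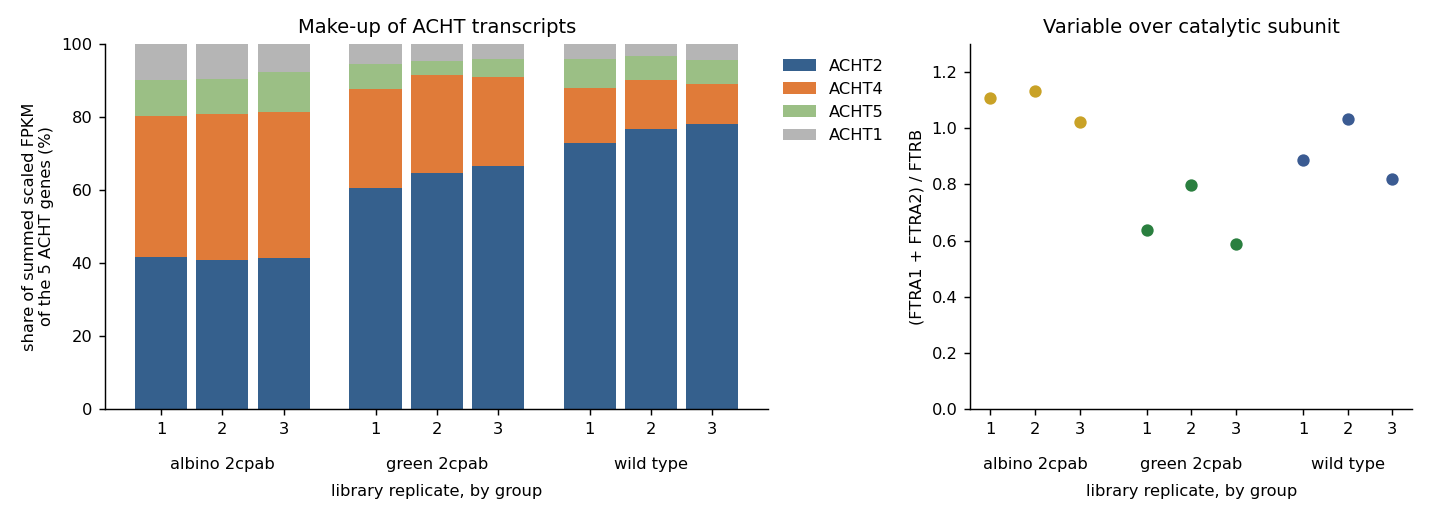
Left, share (%) of each ACHT gene in the summed scaled FPKM of the 5 ACHT genes in each library; ACHT3 is at 0. Right, the ratio of FTRA1 plus FTRA2 to FTRB per library. ACHT4 takes 38.6% to 40.02% in albino, 24.4% to 27.0% in green and 11.04% to 15.02% in wild-type libraries, and the ratio is above 1 in all albino libraries.

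Of the WCRKC pair, WCRKC1 fell in albino seedlings. WCRKC1 (AT5G06690, chromosome 5 from 2060435 to 2062081) was at 6.61, 6.78 and 7.72 scaled FPKM in albino libraries, at 20.02, 17.3 and 18.6 in green ones and at 14.4, 16.5 and 9.86 in the wild type. Albino libraries were below all others, and green libraries were above all wild-type libraries. Against the wild type the change in albino seedlings was -0.84 ± 0.16 (adjusted p = 0.00206), and against green seedlings it was -1.29 ± 0.16 (adjusted p = 0.000211). The difference of 0.45 ± 0.16 between green seedlings and the wild type did not pass (adjusted p = 0.119). It passed without wild-type replicate 2 (0.60, adjusted p = 0.0430; 0.0430 to 0.317 over the 24 alternatives).

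WCRKC2 was steadier. WCRKC2 (AT5G04260, chromosome 5 from 1178644 to 1180060) was at 15.1, 14.3 and 15.8 scaled FPKM in albino, 18.1, 19.6 and 20.3 in green and 17.9, 13.6 and 19.5 in wild-type libraries. It had -0.15 ± 0.12 in albino seedlings against the wild type (adjusted p = 0.350) and 0.19 ± 0.12 in green seedlings (adjusted p = 0.421). Albino libraries lay below green ones without overlap, by 0.34 on the log2 scale, which missed the threshold (-0.34 ± 0.12, adjusted p = 0.0538; 0.0110 to 0.825 over the 24 alternatives). The gene overlaps AT5G04250 on the other strand. WCRKC1 made up 31.8 ± 1.21% of the pair in albino, 49.1 ± 2.96% in green and 44.3 ± 10.6% in wild-type libraries.

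All 3 genes of ferredoxin-thioredoxin reductase fell in albino seedlings. The catalytic subunit FTRB (AT2G04700, chromosome 2 from 1646799 to 1649037) was at 32.4, 31.1 and 33.6 scaled FPKM in albino, 82.0, 84.4 and 113 in green and 96.2, 66.1 and 81.3 in wild-type libraries. The albino libraries lay close together and far below the rest, and green and wild-type libraries were mixed. The albino level was 0.398 of the wild-type mean, -1.29 ± 0.15 (adjusted p = 0.000127), and 0.348 of the green mean, -1.48 ± 0.15 (adjusted p = 7.95e-05). Green seedlings had 0.20 ± 0.15 against the wild type (95% interval -0.15 to 0.54, adjusted p = 0.525).

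The variable subunit, which shields the cluster of the catalytic one, has a pair of genes. FTRA2 (AT5G08410, chromosome 5 from 2709787 to 2710598) was at 25.0, 23.8 and 25.6 scaled FPKM in albino, 34.6, 44.0 and 42.6 in green and 66.5, 50.2 and 44.8 in wild-type libraries. The 3 groups did not overlap, with the wild type highest. FTRA2 fell in albino seedlings, with -1.07 ± 0.14 against the wild type (adjusted p = 0.000269) and -0.67 ± 0.14 against green seedlings (adjusted p = 0.00518), while the value of -0.39 ± 0.14 in green seedlings did not pass (adjusted p = 0.139). Against green replicate 1 alone the albino seedlings had -0.46 (adjusted p = 0.183; 0.00123 to 0.183 over the 24 alternatives). FTRA1 (AT5G23440, chromosome 5 from 7902895 to 7903899) was at 10.9, 11.4 and 8.71 in albino, 17.7, 23.4 and 23.8 in green and 18.7, 18.0 and 21.9 in wild-type libraries. It fell in albino seedlings too, with -0.86 ± 0.14 against the wild type (adjusted p = 0.000772) and -0.997 ± 0.14 against green seedlings (adjusted p = 0.000437), and had 0.13 ± 0.14 between green seedlings and the wild type (adjusted p = 0.642).

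The balance between the reductase's subunit transcripts differed between the mutant groups. Variable-subunit transcripts (FTRA1 plus FTRA2) over FTRB gave 1.11, 1.13 and 1.02 in albino, 0.639, 0.799 and 0.589 in green and 0.886, 1.03 and 0.820 in wild-type libraries. Green libraries were below all albino and all wild-type libraries, and albino and wild-type libraries overlapped. The exact permutation test gave p = 0.1 for both non-overlapping comparisons, the smallest it allows, and p = 0.2 for albino against wild type. FTRA1 made up 29.3 ± 3.57% of the variable-subunit transcripts in albino, 34.8 ± 0.989% in green and 27.0 ± 5.46% in wild-type libraries.

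**Figure D3:**
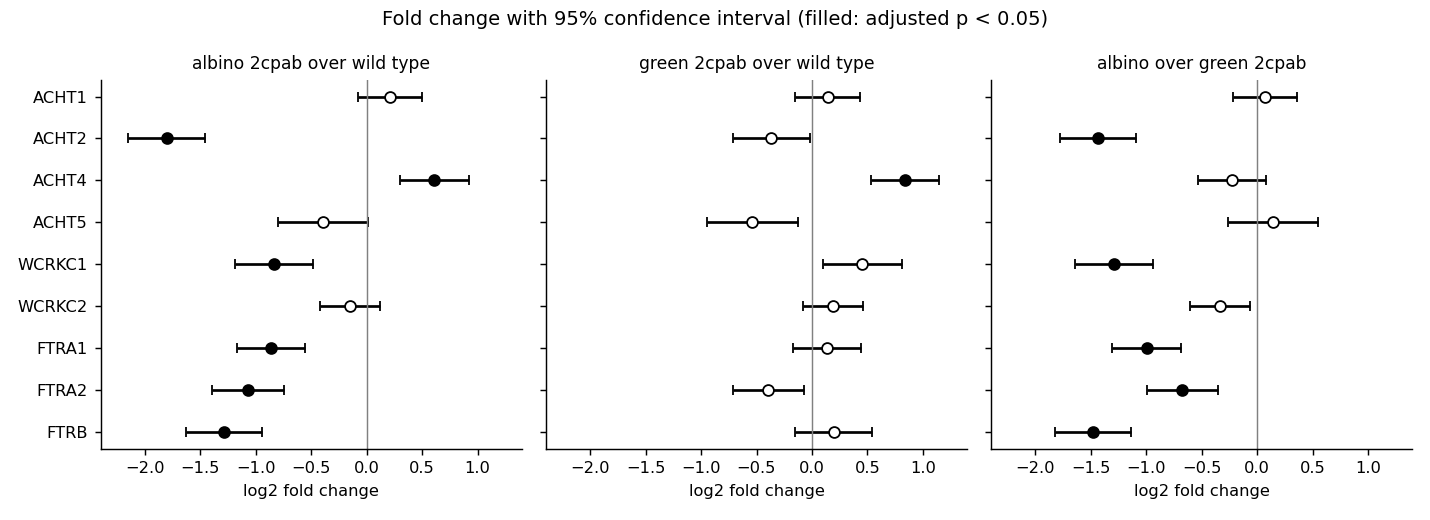
Log2 fold change (horizontal axis) of the 9 tested genes with its 95% confidence interval, for albino over wild type, green over wild type and albino over green seedlings; filled points passed an adjusted p of 0.05. ACHT4, ACHT2, WCRKC1 and the reductase genes are filled in the first panel, ACHT4 alone in the second, and ACHT2, WCRKC1 and the reductase genes in the third.

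Counted over the 9 tested genes, 1 rose and 5 fell in albino seedlings against the wild type. Of all tested genes, 43.5% were called in that comparison, 23.4% higher and 20.1% lower. Those 6 were also the members whose albino and wild-type libraries did not overlap, as was true of 56.0% of all tested genes. Between albino and green seedlings 5 fell and 0 rose, where 36.1% of all tested genes were called, 18.5% higher and 17.7% lower. With WCRKC2, 6 members did not overlap between albino and green libraries, against 53.3% of all tested genes. The 5 genes lower than in the wild type, ACHT2, WCRKC1, FTRA1, FTRA2 and FTRB, were those lower than in green seedlings, and these comparisons share the albino libraries. In green seedlings against the wild type 1 of 9 was called, where 8.87% of all tested genes were called, 3.71% higher and 5.16% lower. In that comparison 4 of 9 did not overlap with the wild type, against 23.8% of all tested genes. The median log2 fold change over the 9 genes was -0.84 in albino and 0.14 in green seedlings against the wild type, and -0.67 between albino and green. Over all tested genes these medians were 0.07, 0.02 and 0.05. Without wild-type replicate 2 the counts were 8 called in albino seedlings, WCRKC2 and ACHT5 joining those that fell. In green seedlings 2 were then called, WCRKC1 joining ACHT4. Over all tested genes, leaving out 1 library gave 6580 to 8752 calls in albino and 1038 to 1627 in green seedlings.

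The order of levels changed in albino seedlings. In the wild type it ran ACHT2, FTRB, FTRA2, ACHT4, FTRA1, WCRKC2, WCRKC1, ACHT5 and ACHT1, at means of 113, 81.2, 53.9, 19.6, 19.5, 17.0, 13.6, 10.5 and 5.91 scaled FPKM. Gaps free of overlap between neighbours lay after ACHT2, after FTRA2 and after ACHT5. In albino seedlings FTRB, ACHT2 and ACHT4 stood level at 32.3, 31.7 and 30.3, each overlapping its neighbour, and FTRA2 came next at 24.8. WCRKC2 (15.1) then stood above FTRA1 (10.3), and ACHT5, WCRKC1 and ACHT1 ended the order at 7.75, 7.03 and 6.90 with overlapping ranges. In green seedlings FTRB (93.0) and ACHT2 (88.4) overlapped at the top.

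The authors' scaling bears on these values. Its factor was 0.787 ± 0.00551 in albino, 1.04 ± 0.0848 in green and 1.05 ± 0.0528 in wild-type libraries (SD, n = 3 each), so it lowers the albino values relative to the others. With the scaling undone, a common sum without organelle genes or TPM, the median change of all tested genes in albino seedlings against the wild type went to 0.44, 0.49 and 0.50, and 83.9%, 85.7% and 85.5% of calls were higher, in place of 53.8%. Under TPM the change of ACHT4 was 1.08 (adjusted p = 6.68e-05), and ACHT2 (-1.35), FTRB (-0.83), FTRA2 (-0.62), FTRA1 (-0.44) and WCRKC1 (-0.43) were still called lower. Relative to the median of all genes, ACHT4 stood at 0.54 with the deposited values and 0.58 under TPM, ACHT2 at -1.88 and -1.85, and FTRB at -1.36 and -1.33. ACHT1 was called higher under these 3 scalings (0.66 under TPM, adjusted p = 0.00566), and WCRKC2 turned to values above 0 without passing. Set against the median of all genes, however, ACHT1 hardly moved, with 0.14 in the deposited values and 0.16 under TPM. Between albino and green seedlings the 3 scalings gave 84.9%, 86.8% and 86.7% of calls higher, against 51.2% with the deposited values. FTRA2 then missed the threshold under TPM (-0.24, adjusted p = 0.0927) and with the common sum (-0.23, adjusted p = 0.0960).

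**Figure D4:**
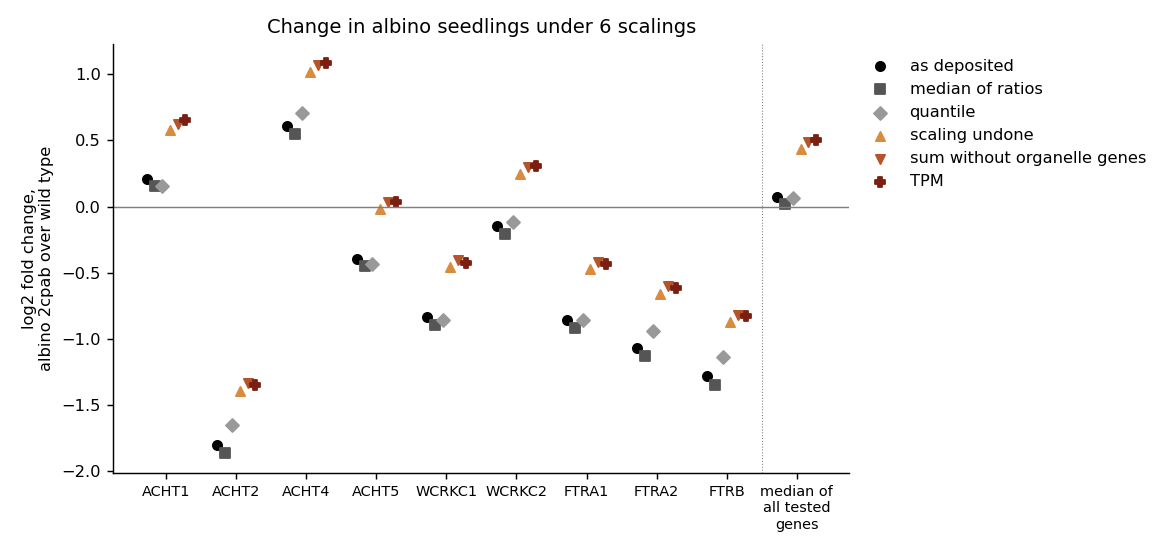
Log2 fold change of each gene in albino 2cpab over wild type (vertical axis) under 6 scalings, with the median of all tested genes at the right. The values shift together with the median: ACHT4 lies above and ACHT2, WCRKC1 and the reductase genes below both 0 and the median under all 6, while ACHT5 and WCRKC2 change side of 0.

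Promoters are shown for ACHT4, which rose in albino seedlings against the wild type, and for ACHT2 and FTRB, which fell. Each runs from 250 bases before to 50 bases after the gene start in TAIR10.1, at chr1:2712444-2712743 on the plus strand for ACHT4, chr4:14537307-14537606 on the minus strand for ACHT2 and chr2:1646549-1646848 on the plus strand for FTRB. Capitals mark matches to the motifs searched.
ACHT4: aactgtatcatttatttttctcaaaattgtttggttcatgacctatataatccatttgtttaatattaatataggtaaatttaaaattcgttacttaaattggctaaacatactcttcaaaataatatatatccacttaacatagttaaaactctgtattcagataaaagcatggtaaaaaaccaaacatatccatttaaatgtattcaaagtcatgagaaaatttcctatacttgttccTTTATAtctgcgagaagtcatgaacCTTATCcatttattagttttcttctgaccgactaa
ACHT2: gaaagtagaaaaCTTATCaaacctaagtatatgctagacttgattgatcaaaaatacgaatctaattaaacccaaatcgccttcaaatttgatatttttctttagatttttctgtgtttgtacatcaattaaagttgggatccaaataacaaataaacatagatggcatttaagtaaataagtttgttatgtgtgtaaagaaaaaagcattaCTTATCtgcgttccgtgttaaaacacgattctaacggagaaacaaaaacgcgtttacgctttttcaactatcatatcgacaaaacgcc
FTRB: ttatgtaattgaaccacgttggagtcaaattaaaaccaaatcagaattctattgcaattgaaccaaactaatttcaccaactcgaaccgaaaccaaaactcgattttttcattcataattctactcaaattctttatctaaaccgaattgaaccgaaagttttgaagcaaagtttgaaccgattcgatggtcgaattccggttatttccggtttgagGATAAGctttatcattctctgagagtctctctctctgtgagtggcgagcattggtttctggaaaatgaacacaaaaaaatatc
The motifs were searched on both strands: G-box CACGTG, I-box GATAAG, evening element AAAATATCT, heat-shock element GAANNTTC, abscisic acid element ACGTGNC and TATA box TATAAA. The I-box, a motif known from promoters of light-regulated genes, was matched in 5 of the 10 promoters, those of ACHT2, ACHT4, ACHT5, FTRA1 and FTRB, and in 14.6% of all 27443 promoters of protein-coding genes. In ACHT2 the matches began 238 and 38 bases before the gene start, in FTRB 33 bases before it, and in ACHT4 15 bases after it. The match was thus shared by genes that rose, fell or did not pass. A TATA box was matched in 5 of 10, against 52.1% of all promoters, and the heat-shock element in ACHT1, against 11.6%. The G-box, evening element and abscisic acid element, which shares ACGTG with the G-box, were matched in 0 of 10, against 7.68%, 2.82% and 10.3% of all promoters.

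The rest of the chloroplast thioredoxin system gives the setting. In albino seedlings against the wild type, 9 of 10 typical chloroplast thioredoxins fell and 1 rose, with a median of -1.66. Of all tested genes, 20.1% were lower and 23.4% higher there, and 5.16% and 3.71% in green seedlings. These shares apply to the lists that follow as well. TRXF1, TRXM1 and TRXF2, which activate carbon-fixing enzymes, fell, with changes of -2.63 ± 0.17, -2.17 ± 0.15 and -2.01 ± 0.13 (adjusted p = 4.49e-06, 6.43e-06 and 5.12e-06). TRXY1 rose by 0.45 ± 0.14 (adjusted p = 0.0246). In green seedlings 0 of these 10 passed, with a median of -0.04, and TRXM1, the most abundant in the wild type, had -0.09 ± 0.15 (adjusted p = 0.796).

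Genes of ferredoxins, ferredoxin-NADP reductases and NTRC fell with them in albino seedlings, 6 of 7 tested, with a median of -1.85. The leaf ferredoxin FD2 fell by 2.99 ± 0.21 (adjusted p = 6.44e-06), and the ferredoxin-NADP reductases LFNR1 and LFNR2 fell, with -2.43 ± 0.18 and -2.38 ± 0.14 (adjusted p = 7.51e-06 and 2.63e-06). NTRC, a reductase with its own thioredoxin domain that is the main donor of 2-Cys peroxiredoxins, was at 36.1 scaled FPKM in albino seedlings and 133 in the wild type, and FD3, the ferredoxin of non-green plastids, had 0.31 ± 0.14 (adjusted p = 0.0951). In green seedlings FD2 was the single member called, lower by 1.04 on the log2 scale (-1.04 ± 0.21, adjusted p = 0.0144), and the call was lost with only the 6 libraries compared. FD2 was at 583, 909.9 and 860.1 scaled FPKM in green replicates 1 to 3 and at 2012, 1471 and 1352 in the wild type.

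Among plastid thiol peroxidases and sulfiredoxin, 6 of 7 fell in albino seedlings, led by the targeted genes and by PRXQ (-2.28 ± 0.15, adjusted p = 5.73e-06). In green seedlings the targeted genes were the 2 that fell, and both calls were lost without wild-type replicate 1 or 3 and with only the 6 libraries compared. In place of 2, 1 was called without wild-type replicate 2, with no filter and in the robust fit. All 5 other plastid thioredoxin-like genes fell in albino seedlings: CDSP32, a drought-induced protein with thioredoxin domains, had -2.16 ± 0.16 (adjusted p = 8.14e-06), and SOQ1, HCF164, CCDA and LTO1 had -1.66, -1.10, -0.88 and -0.64. In green seedlings 0 of 5 passed, and CDSP32, the most abundant, had an adjusted p of 0.996. Of 14 plastid enzymes switched by thioredoxin, 12 fell in albino seedlings with a median of -2.12. Rubisco activase RCA, SBPASE and PRK of the Calvin-Benson cycle fell most, with -3.39 ± 0.23, -3.19 ± 0.19 and -3.07 ± 0.18 (adjusted p = 5.25e-06, 3.00e-06 and 3.12e-06). APS1, the known target of ACHT4, was at 63.0 scaled FPKM in albino, 175 in green and 168 in wild-type seedlings, so it fell in albino seedlings (-1.39 ± 0.13, adjusted p = 2.19e-05) where ACHT4 rose. In green seedlings 1 of the 14 was called, the starch-phosphorylating enzyme GWD1 (0.55 ± 0.14, adjusted p = 0.0344), and this call was lost when green replicate 1 or 2, wild-type replicate 1 or 3, or albino replicate 1 or 2 was left out. It was also lost with no filter, under TPM, with only the 6 libraries compared, with green replicate 1 alone and when a 2-fold change was required.

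**Figure D5:**
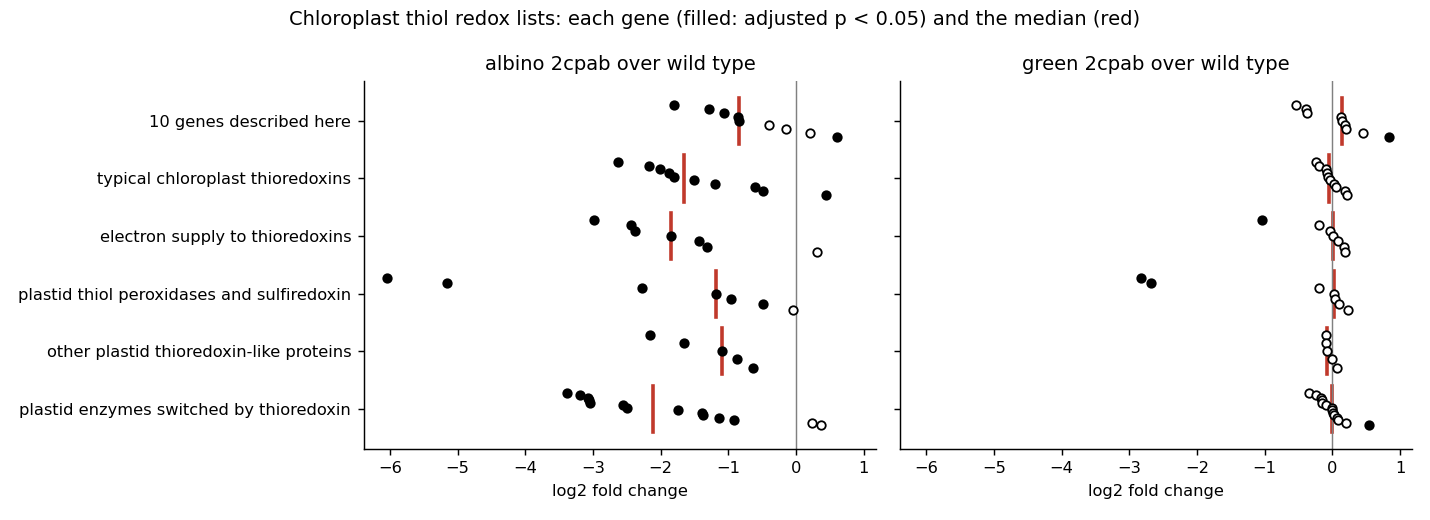
Log2 fold change (horizontal axis) of each tested gene in 6 groups of the chloroplast thiol redox system, for albino (left) and green (right) 2cpab over wild type; filled points passed an adjusted p of 0.05 and red lines are medians. The 9 tested genes described here have a median of -0.84 in albino seedlings, against -1.66 for typical thioredoxins and -2.12 for thioredoxin-switched enzymes; these medians were not tested against each other.

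Profiles most like those of the genes with the widest span of group means were sought over the 9 libraries by the root mean square difference of log2 values, each gene centred on its own mean. Nearest to ACHT2 among genes with a symbol were CCR3 (0.08), AGP1 (0.10) and AGP20 (0.14), of which AGP1 and AGP20 encode arabinogalactan proteins of the cell surface. Nearest to FTRB were PDLP3 (0.09), a plasmodesmata protein, CYP97A3 (0.10), a carotenoid hydroxylase, and FAD7 (0.12), a plastid fatty acid desaturase. WCRKC1 lay nearest to CYP706A5 (0.15), BBD1 (0.17) and PRP4 (0.17). Among the members themselves the closest pairs were ACHT1 with WCRKC2 (0.19), ACHT2 with FTRB (0.29) and FTRA1 with FTRB (0.29).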

How the data were processed

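Stranded libraries were made from poly(A) RNA isolated with a SurePrep kit, per the labels' protocols. FastQC, HISAT2 and StringTie are named without versions, with the TAIR10 genome, per the submitters' processing notes. The authors deposited log2 values of 32833 genes in 9 libraries; the values show FPKM with 6 decimals multiplied by a factor per library, plus 1; all libraries share one 75th percentile. These log2 values were tested as deposited with limma 3.58.1 in R 4.3.3 (a mean per group over 9 libraries, trended variances, Benjamini-Hochberg over 19731 genes with at least 1 scaled FPKM in 3 libraries). Gene models and sequences came from RefSeq TAIR10.1, whose table matched 32548 genes; the other 285 are organelle codes. Shares, sequences and figures were computed in Python 3.11.15 (scipy 1.17.1, matplotlib 3.10.9, numpy 2.4.6, pandas 2.3.3), with exact permutation tests for shares. The fit was run on simulated data with independent noise and set changes, as a check of the code. That simulation did not mimic the uneven green replicates or the shift with scaling.

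Named were the 10 genes, the targeted genes, the called members of each list (the 3 largest changes in each direction where more than 5 were called, and the highest mean where none was) and the 3 nearest profiles of the 3 genes with the widest span. NTRC, APS1 and FD3 were added after their values were seen. The members and lists were chosen with earlier results of these data known. Alternatives changed the pseudocount, filter, scaling, fit, required fold and libraries used. Protein sequences were not used here.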

Additional observations from a re-analysis of the deposited data

How the results depend on the processing

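Of 24 alternatives per comparison, most left the number of the 10 genes called within 1.5 times of its value. Requiring a 2-fold change as well left 0 in green against wild type, 3 in albino against wild type and 3 in albino against green; the requirement itself removes smaller changes. When green replicate 1 alone stood for green seedlings, taken to vary like the others, 0 were called in green and 4 in albino against green. Leaving out 1 library at a time gave 1 to 2 in green and 6 to 8 in albino against wild type. In albino against green it gave 5 to 6. All genes called ranged from 1038 to 1627, 6580 to 8752 and 5202 to 7472 in these comparisons. The labels state no pairing of libraries by replicate number. Deviations of same-numbered libraries correlated at -0.15 to 0.28 across genes, and 10 of 18 matched best with their own number. These values do not decide whether same-numbered libraries were paired. With the replicate block, green against wild type had 2 called (ACHT5 at -0.54, adjusted p = 0.0387), albino against wild type 7 (ACHT5 at -0.39, adjusted p = 0.0373) and albino against green 6 (WCRKC2 at -0.34, adjusted p = 0.0425). All genes called with the block were 1784 in green against wild type, in place of 1751. They were 8621 in albino against wild type, in place of 8581, and 7112 in albino against green, in place of 7131.

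Reversed signs were seen for genes that did not pass, and the cause was not tested. In green against wild type ACHT1 turned to -0.0219 without wild-type replicate 2, and FTRA1 to -0.13 with green replicate 1 alone. In albino against wild type ACHT5 turned to 0.0310 under TPM and 0.0361 with organelle genes removed, and WCRKC2 to 0.30, 0.30 and 0.25 under TPM, with organelle genes removed and with scaling undone. In albino against green ACHT4 turned to 0.21, 0.21 and 0.15, and WCRKC2 to 0.0944, 0.0951 and 0.0355 under the same 3 scalings. ACHT5 turned there to -0.0252 without green replicate 2 (up to 0.231 without green replicate 3) and to -0.0197 with green replicate 1 alone. ACHT1 and, but for the undone scaling, ACHT5 were called higher in albino than green under these scalings. Relative to the median of all genes, ACHT1 stood there at 0.02 with the deposited values and 0.03 under TPM, and ACHT5 at 0.10 and 0.11. On the same measure ACHT4 stood at -0.28 and -0.25, and WCRKC2 at -0.38 and -0.37. In albino against wild type WCRKC2 stood at -0.22 and -0.20, and ACHT5 at -0.47 in both.

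All genes called in green against wild type were 1071 with only the 6 libraries compared, 491 with a 2-fold change, 1126 without green replicate 2, 1038 without wild-type replicate 3 and 729 with green replicate 1 alone. In albino against wild type 8581 became 14815 (TPM), 14500 (organelle genes removed), 14039 (scaling undone) and 2439 (2-fold). In albino against green 7131 became 14175, 13904, 13210 and 1947, and 2655 with green replicate 1 alone. With 3 libraries a group and depth unknown, small differences of ACHT1 and ACHT5 were not resolved.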
